A study of Homo sapiens with 6 samples.

Results

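The genes described here code for the kinases and phosphatase subunits that set the phosphorylation of eIF2alpha, together with the proteins that relay mitochondrial and ribosomal stress to them. They were measured by RNA sequencing in HK-2, an immortalized human cell line that derives from the proximal tubule of the kidney. The members were taken by symbol, and all 10 were found among the 31369 genes of the count table and the 30896 genes of the FPKM table. They are the kinases EIF2AK1, EIF2AK2, EIF2AK3 and EIF2AK4, the kinase regulators GCN1 and DNAJC3, the phosphatase subunits PPP1R15A and PPP1R15B, and the mitochondrial relay genes OMA1 and DELE1. Each of the 10 passed the filter on low counts. The 3 control samples (NC) carry the genotype label WT, and the 3 overexpression samples (OE) the label *PPM1K* overexpress. All 6 samples are labelled with chronic kidney disease as treatment and with day 10 as time. PPM1K is the mitochondrial phosphatase that activates the breakdown of branched-chain amino acids. It was supplied on a plasmid carried in by a lipid reagent, and neither the labels nor the methods say what plasmid the NC cells received. The sample titles name short hairpins in place of overexpression, against the genotype labels.

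eIF2 is the factor that brings the initiator tRNA to the ribosome. When a kinase phosphorylates its alpha subunit, eIF2 holds back its own exchange factor eIF2B, most translation slows, and a few transcripts with upstream open reading frames, such as that of the transcription factor ATF4, are translated better. EIF2AK1 (HRI) responds to lack of heme and to mitochondrial stress, EIF2AK2 (PKR) to long paired RNA, EIF2AK3 (PERK) to unfolded protein in the endoplasmic reticulum, and EIF2AK4 (GCN2) to lack of amino acids and to stalled ribosomes. The phosphate is removed by protein phosphatase PP1, guided by the stress-induced subunit PPP1R15A (GADD34) or by the constitutive subunit PPP1R15B (CReP). In the mitochondrial relay, the protease OMA1 cleaves DELE1, which then activates EIF2AK1 in the cytosol. All of these steps are acts of proteins, and the data here are RNA.

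*PPM1K* itself was counted 37, 19 and 53 times in NC replicates 1, 2 and 3 and 3294, 3531 and 2919 times in OE replicates 1, 2 and 3, in the direction of the genotype labels. The total counts per sample lay between 34635770 and 39850802. NC replicate 2 stood apart in the number of genes with a count, 26478 against 22094 to 22913 in the other 5 samples. In the paper's distribution of reads this sample also had the largest intronic, intergenic and antisense shares. Of 6 epithelial markers, the keratin genes KRT8, KRT18 and KRT19 had a deposited FPKM of at least 145 in every sample, and EPCAM at least 101. The keratin gene KRT7 lay at 32.0 to 38.3 in NC and 41.9 to 48.4 in OE. The cadherin gene CDH1 was low, at 0.28 to 0.34 in NC and 0.10 to 0.21 in OE. The renal transcription factor gene PAX8 lay between 26.4 and 35.1. Of 10 proximal tubule markers PAX8 was the only one to reach an FPKM of 1 in any sample, and the transporter genes AQP1 and CUBN stayed at or below 0.04, with LRP2 and SLC22A6 not listed. Markers of other cells were low. Their summed FPKM was at most 0.10 for 3 immune genes and at most 0.06 for 2 podocyte genes, and of 4 distal nephron genes only SLC12A3 was listed. Some summed levels differed between the groups without overlap. The 10 proximal tubule markers, nearly all from PAX8, summed to 27.4 to 29.6 in NC and 33.2 to 35.9 in OE, and 6 epithelial genes to 777 to 872 in NC and 668 to 726 in OE. Other proximal tubule markers did not all go with PAX8. GGT1 was lower in OE, at 0.22 to 0.35 in NC and 0.11 to 0.17 in OE. SLC5A2 was also lower, at 0.13 to 0.24 and 0.06 to 0.12, and MME was higher, at 0.24 to 0.28 and 0.34 to 0.41. The sums were 0.52 to 0.69 in NC and 0.73 to 0.87 in OE for 3 endothelial genes, and 1.27 to 1.48 and 0.63 to 0.72 for 4 fibroblast genes, nearly all from COL1A1. SLC12A3 was at 0.02 to 0.03 in NC and listed at 0 in every OE sample. Their part in the results was not tested. The labels do not say whether the replicates were separate cultures, so the p-values measure the spread between these samples, which may be technical.

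The promoters of the 3 genes that the results turn on are given first. PPP1R15A and EIF2AK2 are the members that passed the test as higher in OE, and PPP1R15B is the close relative of PPP1R15A that did not pass. Each is the RefSeq window of 300 bases on GRCh38.p14, from 250 bases before the annotated start to 50 after it, written 5′ to 3′ on the strand of the gene. Capitals mark the motif found. The PPP1R15A window is chr19:48872171-48872470 on the plus strand, the PPP1R15B window chr1:204411768-204412067 on the minus strand, and the EIF2AK2 window chr2:37156931-37157230 on the minus strand.
PPP1R15A: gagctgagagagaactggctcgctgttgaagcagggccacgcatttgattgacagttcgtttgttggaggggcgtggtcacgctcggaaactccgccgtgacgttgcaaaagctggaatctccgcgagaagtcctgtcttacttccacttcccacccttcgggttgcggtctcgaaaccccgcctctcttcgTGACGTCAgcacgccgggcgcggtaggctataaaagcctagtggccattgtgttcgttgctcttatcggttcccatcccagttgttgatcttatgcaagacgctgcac
PPP1R15B: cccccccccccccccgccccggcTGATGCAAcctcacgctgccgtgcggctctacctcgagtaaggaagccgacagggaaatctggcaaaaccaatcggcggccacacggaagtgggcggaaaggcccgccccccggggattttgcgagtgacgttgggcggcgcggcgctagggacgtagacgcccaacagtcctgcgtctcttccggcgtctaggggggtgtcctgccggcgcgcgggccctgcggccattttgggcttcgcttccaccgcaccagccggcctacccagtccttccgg
EIF2AK2: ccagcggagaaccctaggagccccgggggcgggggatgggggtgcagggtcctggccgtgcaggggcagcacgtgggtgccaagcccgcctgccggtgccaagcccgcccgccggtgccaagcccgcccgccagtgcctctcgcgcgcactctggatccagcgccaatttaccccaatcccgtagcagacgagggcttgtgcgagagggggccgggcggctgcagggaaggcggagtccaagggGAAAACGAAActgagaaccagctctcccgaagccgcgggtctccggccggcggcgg

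A cAMP response element, TGACGTCA, lies at positions −58 to −51 of the PPP1R15A window, counted from the annotated start, and 1.85% of the 35116 RefSeq windows hold one. The core of the interferon-stimulated element, GAAANNGAAA, spans the annotated start of EIF2AK2 from −6 to 4, and 3.57% of all windows hold it. The core of the C/EBP-ATF composite element, TGATGNAA, was found at −227 to −220 of PPP1R15B, and 3.62% of all windows hold it. The endoplasmic reticulum stress element, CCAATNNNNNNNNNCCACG, was in 0.0769% of all windows and in no member. Both strands were searched, no motif overlapped another, and 9 of the 10 members had a window. EIF2AK3, EIF2AK4, OMA1, DELE1, GCN1 and DNAJC3 held none of the 4 motifs. A match is a match of letters, and binding was not measured.

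Of the 10 genes, 2 were higher and 5 were lower in OE by the quasi-likelihood test of edgeR, at a Benjamini-Hochberg adjusted p under 0.05 over all 15878 tested genes. PPP1R15A and EIF2AK2 rose, and EIF2AK1, EIF2AK3, OMA1, DELE1 and GCN1 fell. EIF2AK4, PPP1R15B and DNAJC3 did not pass. Over all tested genes, 48.6% passed this test, 24.9% being higher and 23.7% lower, and the 7 of 10 members are given as a description beside it. The median log2 fold change of the members was −0.08, beside −0.00321 over all tested genes. PPP1R15A alone also passed the fold change limit of 2, which together with the adjusted p was met in the higher direction by 1.73% of the tested genes. By CPM (counts divided by TMM-adjusted library size), NC and OE did not overlap for 6 of the 10 genes, against 55.3% of all tested genes. In RNA from a whole culture, fewer cells that carry a transcript and less of it per cell cannot be told apart.

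**Figure D1:**
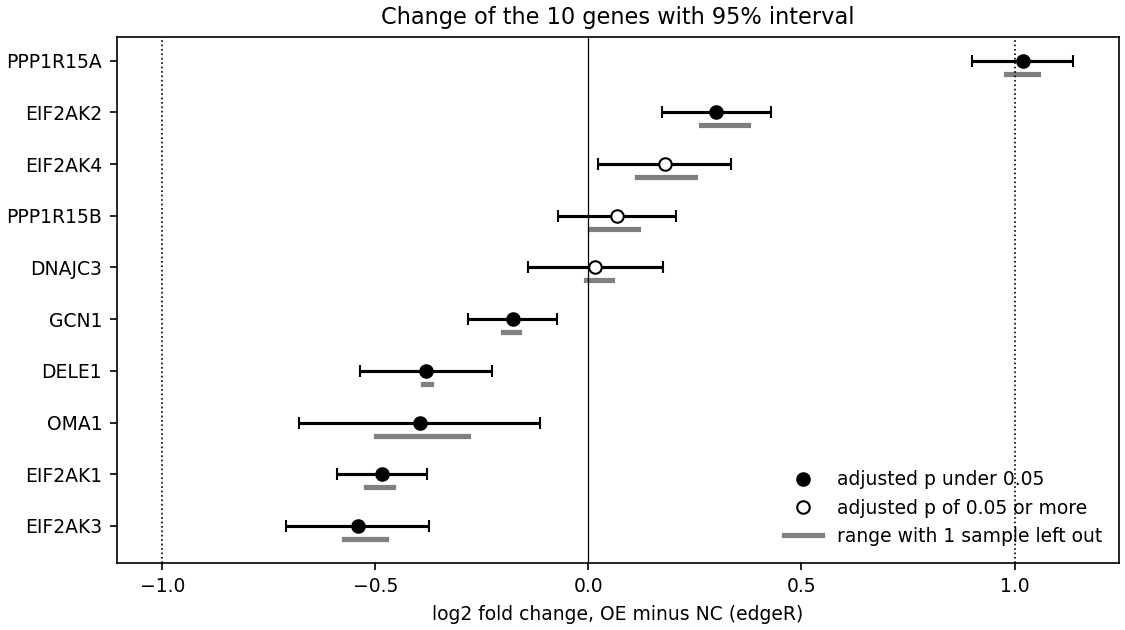
Log2 fold change of OE over NC for the 10 genes, from edgeR on the deposited counts (n = 3 per group). Points are estimates with 95% intervals, filled where the adjusted p was under 0.05, grey bars give the range with 1 sample left out, and dotted lines mark a change of 2-fold. PPP1R15A stands alone at 1.02, EIF2AK2 follows at 0.30, and the estimate for EIF2AK3 is −0.54 with an interval that overlaps that of EIF2AK1.

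PPP1R15A, the stress-induced subunit that brings PP1 to eIF2alpha, had the largest change of the 10 and by far the highest level. Its deposited FPKM, a read level scaled by transcript length and sequencing depth, was 340.0, 308 and 347 in NC replicates 1, 2 and 3. In OE replicates 1, 2 and 3 it was 670.0, 718 and 657. The lowest OE sample was thus far above the highest NC sample. On the log2 scale the change was 1.02 (standard error, SE, 0.06, 95% interval 0.90 to 1.14, edgeR adjusted p = 6.6e-12). The interval holds 1, so whether the fold change itself exceeds 2 is not settled by these samples. The log2 fold change was 0.98 without NC replicate 2, to 0.98 without OE replicate 2 and to 0.98 with upper quartile normalization, and in each of these fits no member was past the limit.

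The rise took place in a transcript that was already among the most abundant of these cells. PPP1R15A was 86th by mean FPKM in NC and 37th in OE, of 30896 genes. It took 0.111% of all counts in NC and 0.222% in OE, as means over the 3 samples of each group. Of the 86 genes at or above its NC level, itself included, 26 were higher at an adjusted p under 0.05 and PPP1R15A was the only one also past 2-fold. Among the 274 genes higher past 2-fold in the whole table, it had the highest mean FPKM in both groups. Its FPKM gain of 350 was the fourth largest of all genes. The gene spans bases 48872212 to 48876059 of chromosome 19 on the plus strand (GRCh38, GENCODE release 44, as for all positions of genes given here), and no other annotated gene overlaps it.

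PPP1R15B, the constitutive counterpart, had an FPKM of 7.02, 7.61 and 7.08 in NC and 7.44, 7.21 and 8.42 in OE. The groups overlapped. Its log2 fold change of 0.07 had a 95% interval from −0.07 to 0.21 (edgeR adjusted p = 0.43), which leaves out a rise of the size seen for PPP1R15A. PPP1R15B lies at chr1:204396492-204411887 on the minus strand, where the antisense gene PPP1R15B-AS1 covers it. That antisense gene had between 4 and 12 counts per sample against at least 1379 for PPP1R15B.

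The ratio of PPP1R15A to PPP1R15B within a sample does not depend on scaling between samples. By FPKM it was 48.4, 40.5 and 49.0 in NC and 90.1, 99.5 and 78.0 in OE. All 3 OE samples lay above all 3 NC samples. On the log2 scale the ratio went from 5.52 ± 0.153 in NC to 6.47 ± 0.177 in OE (mean ± SD, n = 3), a difference of 0.95 (p = 0.1, exact permutation test, two-sided, which can go no lower with 3 samples against 3). The level of the ratio depends on the transcript lengths used. Per kilobase of the canonical GENCODE transcript its mean was 60.0 in NC and 116 in OE, with the same log2 difference of 0.95.

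**Figure D2:**
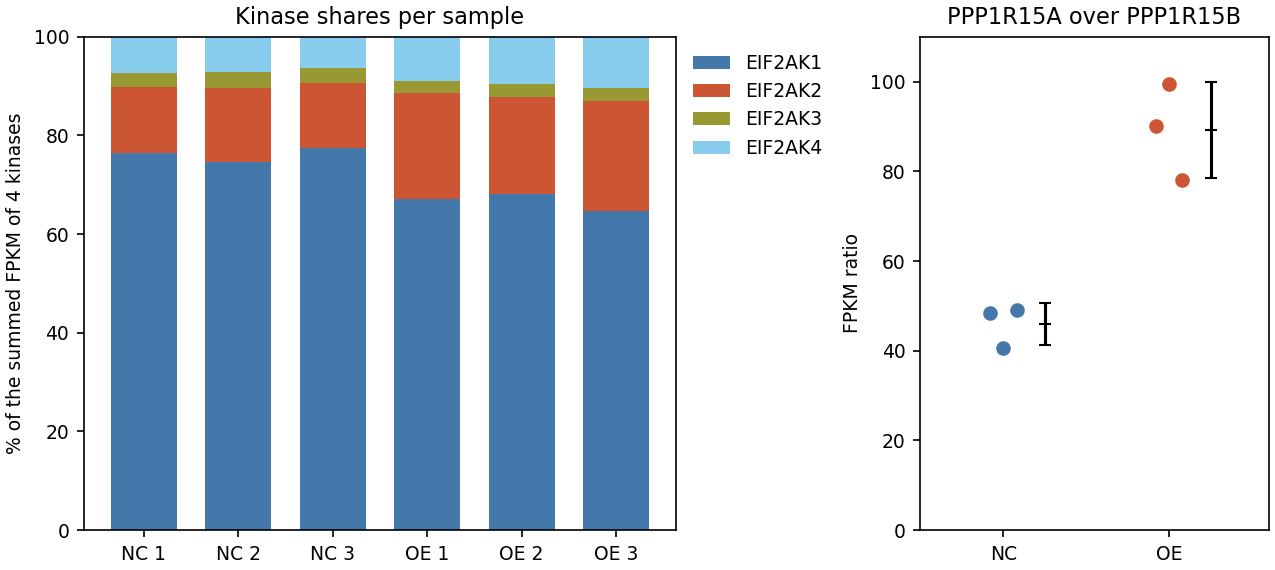
Left, the share of each kinase in the summed FPKM of the 4 eIF2alpha kinases in each sample. Right, the FPKM ratio of PPP1R15A to PPP1R15B, each point a sample and each black bar the mean with its SD (n = 3). The EIF2AK1 share falls from between 74.5% and 77.4% in NC to between 64.7% and 68.2% in OE, and the ratio rises from a range of 40.5 to 49.0 to one of 78.0 to 99.5.

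The 4 kinases did not move together. EIF2AK1, the heme-regulated kinase on which the mitochondrial relay ends, was the most abundant of them. Its FPKM was 28.7, 28.0 and 28.7 in NC and 19.98, 21.8 and 20.1 in OE. The groups were far apart relative to their SD, which was 1.47% of the mean in NC and 5.06% in OE. EIF2AK1 fell by 28.5% in OE, a log2 fold change of −0.48 (SE 0.05, 95% interval −0.59 to −0.38, edgeR adjusted p = 9.5e-08). EIF2AK1 lies at chr7:6022247-6059175 on the minus strand. The annotated span of AIMP2 on the opposite strand covers 1588 exonic bases of its canonical transcript. AIMP2, a scaffold protein of the aminoacyl-tRNA synthetase complex, had 1319 to 1394 counts in NC and 1925 to 2156 in OE, every OE count being above every NC count. The library kit keeps strand, and the paper's distribution of reads lists antisense reads apart. Whether the counting per gene used strand is not given in the sources used here.

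EIF2AK2, the interferon-inducible kinase of paired RNA, was the only kinase that passed the test as higher in OE. Its FPKM was 5.02, 5.65 and 4.96 in NC and 6.40, 6.26 and 6.90 in OE. NC replicate 2 was the highest control and still lay below every OE sample. EIF2AK2 rose by 23.2%, with a log2 fold change of 0.30 (SE 0.06, 95% interval 0.17 to 0.43, edgeR adjusted p = 0.00035). This is smaller than the median absolute log2 fold change of 0.43 over all genes with an adjusted p under 0.05. EIF2AK2 lies at chr2:37099210-37157522 on the minus strand, and the span of GPATCH11 on the opposite strand covers 35 of its exonic bases.

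EIF2AK3, the kinase of the endoplasmic reticulum membrane, also fell. It was counted 843, 962 and 882 times in NC and 587, 721 and 659 times in OE. No OE count reached the lowest NC count. EIF2AK3 fell by 31.3% in OE, a log2 fold change of −0.54 (SE 0.08, 95% interval −0.71 to −0.37, edgeR adjusted p = 1.1e-05). This interval overlaps that of EIF2AK1. By limma on log2(FPKM + 1), a scale that understates changes of low genes, the difference was −0.25 with an adjusted p of 0.0069. EIF2AK3 lies at chr2:88556741-88691518 on the minus strand. The lncRNA gene EIF2AK3-DT, which overlaps it on the other strand, had 24 to 54 counts per sample.

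EIF2AK4, the amino acid sensor, had an FPKM of 2.75, 2.71 and 2.35 in NC and 2.67, 3.08 and 3.22 in OE. OE replicate 1 lay inside the NC range. Its log2 fold change was 0.18 (95% interval 0.02 to 0.34, edgeR adjusted p = 0.055), just short of the threshold. With 1 sample left out, edgeR gave 0.11 to 0.25. Without OE replicate 1 it was 0.25 with an adjusted p of 0.018, and without NC replicate 2 it was 0.22 with an adjusted p of 0.040, both from edgeR. Without NC replicate 3 it was 0.11 with an adjusted p of 0.27, and without OE replicate 3 it was 0.13 with an adjusted p of 0.17, again from edgeR. EIF2AK4 lies at chr15:39934115-40035591 on the plus strand, with 39 exons in the canonical transcript.

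The makeup of the kinase transcripts, which restates the changes above as shares, differed between the groups. The shares of a sample add up to the whole, so a fall of EIF2AK1 raises the others even where those genes do not change. The summed FPKM of the 4 kinases went from 37.4 ± 0.245 in NC to 30.9 ± 1.11 in OE (mean ± SD, n = 3). EIF2AK1 made up 76.1% ± 1.44 of this sum in NC but 66.7% ± 1.82 in OE (mean ± SD, n = 3). The share of EIF2AK2 was 13.4%, 15.1% and 13.4% in NC and 21.5%, 19.6% and 22.3% in OE. The groups did not overlap, and the difference of 7.18 percentage points gave p = 0.1 in the same exact permutation test. The share of EIF2AK4 went from 6.96% ± 0.546 to 9.66% ± 0.708 (SD, n = 3), and that of EIF2AK3 from 3.01% ± 0.161 to 2.54% ± 0.147 (SD, n = 3). Each sample had more EIF2AK1 than EIF2AK2 by FPKM, 5.48-fold on average in NC and 3.17-fold in OE.

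Of the proteins that steer the kinases, GCN1 was slightly lower in OE and DNAJC3 did not pass the test. GCN1, the ribosome-bound activator of EIF2AK4, had an FPKM of 9.97, 9.88 and 9.69 in NC and 9.04, 8.71 and 8.74 in OE. The groups did not overlap, and GCN1 fell by 11.6%, with a log2 fold change of −0.18 (SE 0.05, 95% interval −0.28 to −0.07, edgeR adjusted p = 0.0057). GCN1 lies at chr12:120127202-120194715 on the minus strand. DNAJC3 (P58IPK), a co-chaperone first known as an inhibitor of EIF2AK2 and EIF2AK3, had an FPKM of 3.08, 2.85 and 3.06 in NC and 2.89, 3.17 and 3.16 in OE. Its groups overlapped, and the log2 fold change of 0.02 had a 95% interval from −0.14 to 0.18 (edgeR adjusted p = 0.87). DNAJC3 lies at chr13:95677139-95794988 on the plus strand.

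Both genes of the mitochondrial relay were lower in OE, with unequal certainty. DELE1, the messenger that activates EIF2AK1, had an FPKM of 3.23, 3.20 and 3.18 in NC and 2.49, 2.47 and 2.51 in OE. No other member had replicates this close in FPKM, with an SD of 0.786% of the mean in NC and 0.803% in OE. DELE1 fell by 23.2% in OE, a log2 fold change of −0.38 (SE 0.07, 95% interval −0.54 to −0.23, edgeR adjusted p = 0.00023). DELE1 lies at chr5:141923855-141942047 on the plus strand, and overlaps no other annotated gene.

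OMA1, the inner membrane protease that cleaves DELE1, was the least counted member. Its counts were 177, 244 and 219 in NC and 157, 172 and 188 in OE. In CPM the highest OE sample, 5.17 in replicate 3, lay just above the lowest NC sample, 5.09 in replicate 1. Its log2 fold change was −0.40 (SE 0.14, 95% interval −0.68 to −0.11, edgeR adjusted p = 0.020). Without NC replicate 2, its highest sample, the log2 fold change was −0.28 with an adjusted p of 0.13, and DESeq2 gave an adjusted p of 0.061. OMA1 lies at chr1:58415384-58546802 on the minus strand, and the annotated span of DAB1 on the same strand covers its whole canonical transcript. DAB1 had 85 to 105 counts per sample, so reads that the counting could assign to either gene make the level of OMA1 uncertain.

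**Figure D3:**
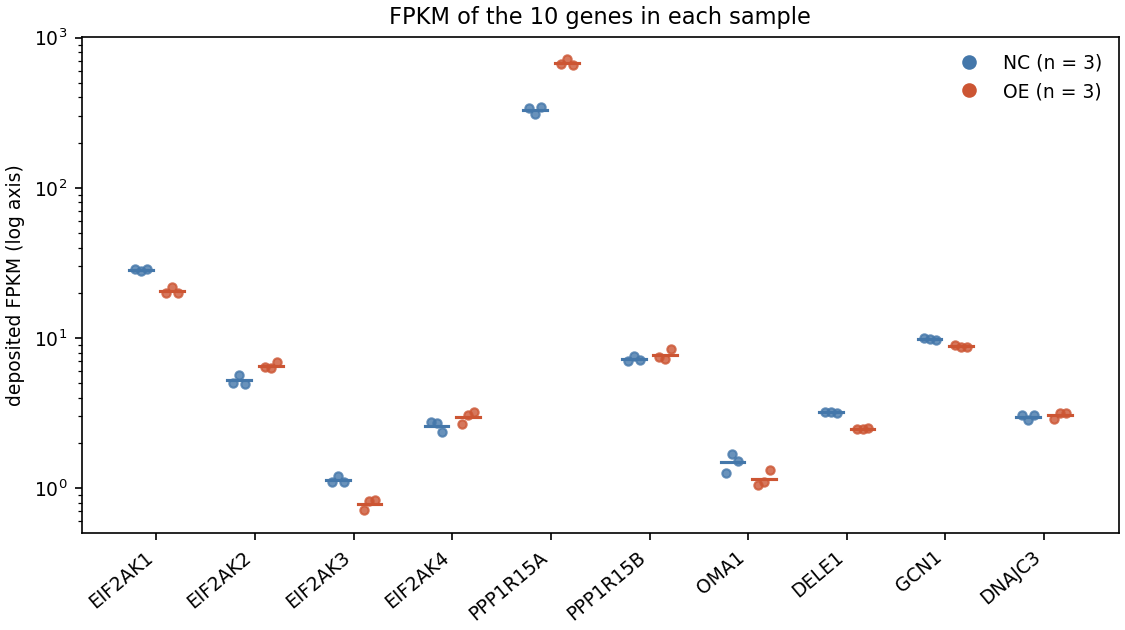
Deposited FPKM of the 10 genes in each sample, on a log axis, with NC in blue and OE in orange and a short line at each group mean (n = 3). PPP1R15A lies between 308 and 718, EIF2AK1 between 19.98 and 28.7, and the other genes below 10, with EIF2AK3 lowest at 0.71 to 1.20.

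By deposited FPKM, a level per length of transcript, the order in NC was PPP1R15A at 332, EIF2AK1 at 28.4, GCN1 at 9.85, PPP1R15B at 7.24, EIF2AK2 at 5.21, DELE1 at 3.20, DNAJC3 at 3.00, EIF2AK4 at 2.60, OMA1 at 1.49 and EIF2AK3 at 1.13. No neighbours in this order had overlapping NC samples. In OE, DELE1 at 2.49 dropped below DNAJC3 at 3.07 and EIF2AK4 at 2.99, and these last genes overlapped each other. The order rests on the transcript length that the authors divided by. Counts and FPKM together imply a length of 22200 bases for EIF2AK3, 4.88 times its canonical GENCODE transcript of 4536 bases. For the other members the implied length was between 1.07 and 2.32 times the canonical one. Per kilobase of the canonical transcript, EIF2AK3 had a CPM of 5.59 in NC and stood seventh instead of last, above DELE1 at 4.25, DNAJC3 at 3.25 and OMA1 at 3.24. On that scale the shares of the kinases in NC were 68.2% for EIF2AK1, 11.1% for EIF2AK2, 10.8% for EIF2AK4 and 9.91% for EIF2AK3. Fold changes between NC and OE from counts do not depend on the length used. Differences in log2 FPKM with a pseudocount and the kinase shares do.

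The wider pathway was read from 7 lists with 54 genes, all of them tested. At an adjusted p under 0.05 from edgeR, 27 of them were higher in OE, 9 were lower and 18 did not pass. Among all tested genes 24.9% were higher and 23.7% lower, which also stands as the background of the counts for each list. Their median log2 fold change was 0.18, beside −0.00321 over all tested genes. Since the lists were written with earlier results of these data known, the counts are descriptions. Of the 54 genes, 38 overlap another annotated gene.

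The factor on which the kinases act was described by 11 genes of eIF2, eIF2B and related factors, of which 6 were higher and 1 lower. EIF2S1, the alpha subunit that carries the phosphorylation site, rose with a log2 fold change of 0.46 (SE 0.05, edgeR adjusted p = 2.6e-07), from an FPKM of 20.9 to 29.1. EIF2S2, the beta subunit, rose by 0.53 on the same scale, and EIF2S3, the gamma subunit, had −0.02 and did not pass. Of the 5 eIF2B subunits, the exchange factor that phosphorylated eIF2 blocks, 4 were higher, led by EIF2B2 with a log2 fold change of 0.68. The list's lower gene was EIF5, which stimulates GTP hydrolysis by eIF2, with −0.25. Among the catalytic subunits of PP1, with which PPP1R15A and PPP1R15B work, PPP1CB rose with a log2 fold change of 0.38 and PPP1CC with 0.32, while PPP1CA had 0.06 and did not pass.

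Around EIF2AK4, 3 of 9 regulators and ribosome collision factors were higher and 1 was lower. EDF1, which senses collided ribosomes, had a log2 fold change of 0.51, the collision ubiquitin ligase ZNF598 of 0.41, and IMPACT, which competes with EIF2AK4 for GCN1, of 0.37. MAP3K20, a ribosome stress kinase, was lower with −0.17 and an adjusted p of 0.045 from edgeR. Around EIF2AK2, 1 of 4 genes passed. This was PRKRA, the protein activator of that kinase, with a log2 fold change of −0.38 (edgeR adjusted p = 0.00019), opposite in sign to EIF2AK2 itself.

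Beside EIF2AK3, which fell, the list of the other sensors of the unfolded protein response and their partners held 7 genes, of which 4 were higher and 1 was lower. ERN1 (IRE1) was counted 160, 153 and 110 times in NC and 314, 292 and 306 times in OE, and its log2 fold change was 1.02 (SE 0.14, edgeR adjusted p = 3.3e-06). XBP1, whose transcript IRE1 splices, had 0.33, and the sensor ATF6 had 0.29. The lower gene was HSPA5, the main chaperone that binds the sensors, with −0.22.

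Around OMA1 at the mitochondrial inner membrane, 5 of 12 genes were higher and 4 lower. PINK1, the kinase that marks damaged mitochondria, fell most, from an FPKM of 10.1, 9.01 and 9.55 in NC to 5.04, 5.74 and 4.84 in OE, with −0.89 on the log2 scale (SE 0.07, edgeR adjusted p = 1.6e-09). SPG7 and AFG3L2, subunits of the same matrix protease, moved in opposite directions, with −0.43 and 0.42. OPA1, the fusion protein that OMA1 and YME1L1 cleave, had −0.26, and YME1L1 had 0.22. STOML2, a scaffold protein of the inner membrane, had 0.27.

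The last list held 8 transcripts with upstream open reading frames that are known to be translated when eIF2alpha is phosphorylated. It is a selection of such transcripts and not the whole class. The members, PPP1R15A and PPP1R15B among them, were kept out of it. All 8 passed, 7 higher and 1 lower, where 48.6% of all tested genes passed. In none of the 8 did the groups overlap in CPM, which held for 55.3% of all tested genes. IFRD1 had a log2 fold change of 1.15 (SE 0.07, edgeR adjusted p = 9.9e-12), DDIT3 (CHOP) of 1.08 and the cationic amino acid transporter gene SLC7A1 of 0.96. DDIT3 had an FPKM of 33.0, 32.7 and 34.7 in NC and 74.3, 73.3 and 67.4 in OE. CHOP is known as a transcription factor that acts on PPP1R15A, and this action of CHOP was not measured here. ATF4, the central factor of the response, rose less, with 0.28, and ATF5 was lower with −0.32. IFRD1, DDIT3 and ERN1 were the 3 genes of the 54 past 2-fold, and the estimate for ERN1 lay close to that limit. Counts of RNA do not show how strongly these transcripts were translated.

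**Figure D4:**
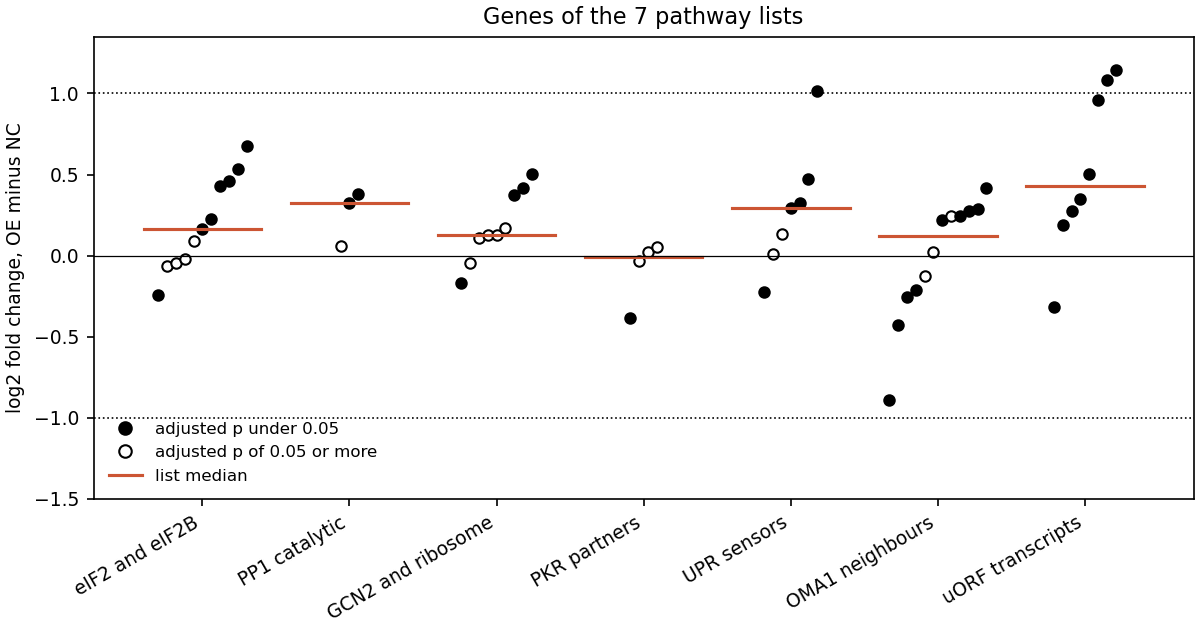
Log2 fold change of OE over NC for the 54 genes of the 7 pathway lists, each point a gene, filled where the adjusted p from edgeR was under 0.05, with the list median in orange and dotted lines at 2-fold. The list of transcripts with upstream open reading frames (uORF) has the highest median, 0.43, and PINK1 is the lowest gene, at −0.89.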

How the data were processed

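RNA of 6 HK-2 samples was sequenced, 3 NC and 3 OE, grouped by the genotype labels. The cell type labels all give HK-2, but the cell line labels carry other HK numbers for some samples. Replicate numbers come from the titles. The authors dropped reads with more than 2 N bases, trimmed with FASTX-Toolkit, aligned them with HISAT2 to GRCh38 and used uniquely mapping reads. The deposited counts per gene are not normalized. The deposited FPKM values were computed by the authors from the same reads, to 2 decimals. The submitters' processing notes also list mm10, but 99.7% of the identifiers are in GENCODE release 44 (human). The annotation, the counting program and the use of strand in the counts per gene are not given in the sources used here.

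The counts were tested in R 4.3.3 by edgeR 4.0.16 with filterByExpr, TMM and the quasi-likelihood test, with Benjamini-Hochberg adjustment over the 15878 tested genes. The study's thresholds were used, an adjusted p under 0.05 and, where stated, a fold change above 2 or below 0.5. Intervals use the standard error and edgeR's degrees of freedom. DESeq2 1.42.0 and limma 3.58.1, on log2 FPKM with a pseudocount of 1 or 0.1, served as alternatives. The test was also run on simulated counts, in which far fewer genes were changed than passed here and some smaller changes were missed. That run does not tell how many changes the test missed in these data. Named genes are the 10 members, *PPM1K*, up to 3 genes with the smallest adjusted p per list and direction, list genes past 2-fold, with ATF4 and remaining subunits added after their values were seen. AIMP2, GPATCH11, DAB1 and the antisense genes were named for their overlap. The members and lists were chosen with earlier results of these data known. Promoters are from RefSeq. Replicates were not copies, since their mean chi-square per gene was at least 5.13. Plots used matplotlib 3.10.9 (Python 3.11.15).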

Additional observations from a re-analysis of the deposited data

How the results depend on the processing

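Each member was refitted under 14 alternatives, and 127 of these 140 results kept their direction and their side of the threshold. EIF2AK1, EIF2AK2, EIF2AK3, PPP1R15A, PPP1R15B, DELE1 and GCN1 did so in all of them, although limma on log2(FPKM + 1) moved EIF2AK3 from −0.54 to −0.25 and PPP1R15B ran from 0.0044 to 0.12 with a sample left out (0.0044 without OE replicate 3, 0.12 without NC replicate 2 or OE replicate 2). OMA1 passed in 7 of 14, with adjusted p from 0.0073 to 0.13 and −0.21 by limma on log2(FPKM + 1), and EIF2AK4 passed in 3 of 14. DNAJC3 reversed to −0.021 with upper quartile normalization, to −0.0058 without NC replicate 2 and to −0.0029 without OE replicate 2, and ranged from −0.0058 to 0.055 with a sample left out. The number of members past 2-fold, 1, was 0 with upper quartile normalization and between 0 and 1 with a sample left out, where the log2 fold change of PPP1R15A was 0.98 to 1.05. In all alternatives 2 or 3 members were higher and 4 or 5 lower, and of the list genes 24 to 28 and 8 to 10. In the fit that blocked on replicate number, 2 members were higher, 5 lower and 1 past 2-fold, with 26 list genes higher and 8 lower against 27 and 9. The deviations of same-numbered samples had correlations of −0.0032, −0.066 and −0.054, and those of differently numbered samples −0.026 to 0.078. No shared deviation of same-numbered samples was seen, but with 3 samples per group this cannot tell whether they were handled together. The gain in the EIF2AK2 share was 5.71 percentage points per kilobase of the canonical transcript, a scaling chosen after seeing the data that uses other transcript lengths, and 6.61 to 7.95 by FPKM with a sample left out. The planned scaling by the length of RefSeq proteins was not run. OMA1 had 157 to 244 counts per sample, the fewest of the members, and how much of its spread is counting error was not tested.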
